A study of Homo sapiens with 4 samples.

Results

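The aminoacyl-tRNA synthetases and the proteins that hold several of them in a complex were followed in MHCC97-H, the label of a cell line from a human liver cancer. A fixed list of gene symbols was matched to GENCODE release 29, which gave 39 members among the 58735 genes of the deposited count table. They are 20 cytosolic synthetase genes, 16 mitochondrial synthetase genes, whose symbols end in 2, and 3 scaffold proteins of the multi-synthetase complex, AIMP1, AIMP2 and EEF1E1. Several of the cytosolic symbols have since gained a final 1 (AARS is now AARS1), and the older symbols are kept here. The compared groups are 2 libraries of wild-type cells kept 16 h with clofazimine, a riminophenazine antibiotic, and 2 libraries of wild-type cells labelled as given no treatment. No vehicle is named for the untreated cells. The clofazimine dose is 40 uM in the sample labels and 30 uM in the description of the series, which the sources used here leave unsettled. Both groups are the same cell line. Nothing in the labels states that the replicates of a group were grown apart, so a p-value here reflects the spread among 4 libraries, which may be technical.

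Aminoacyl-tRNA synthetases join each amino acid to its tRNA and so supply the ribosome with substrates. The cytosol and the mitochondrion each need such enzymes. Most amino acids have a separate nuclear gene for each compartment, while GARS and KARS each serve both. Several cytosolic enzymes are bound in a large complex around AIMP1, AIMP2 and EEF1E1. Uncharged tRNA activates the kinase GCN2, which leads to translation of the transcription factor ATF4, and many cytosolic synthetase genes are known targets of ATF4.

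Total counts per library lay between 13543437 and 16860578, and all 39 members passed the filter on low counts. Levels are CPM computed with library sizes adjusted by edgeR's TMM factors, and a count of 3 corresponds to 0.170 to 0.233 CPM. They are shares of a library, so RNA per cell and the number of cells cannot be told apart in them. Of the 9 hepatocyte and liver cancer markers 3 (ALB, AFP and APOB) had no count in any library, and the list summed to 1.87 and 2.49 CPM in the clofazimine and 8.56 and 10.9 CPM in the untreated libraries. Only SERPINA1 and HNF4A of that list passed the filter, and both were lower. The 4 epithelial markers were detected. KRT8 had 1093 and 1239 CPM in the clofazimine and 1106 and 1272 CPM in the untreated libraries and was not called, nor was EPCAM, at a mean of 5.81 CPM with clofazimine and 4.40 CPM without. KRT18 was higher (0.36), and CDH1, which encodes E-cadherin, was lower, at 16.1 and 15.2 CPM with clofazimine against 42.2 and 47.3 CPM without (-1.52 ± 0.14). The 13 markers of other cell types summed to 169 and 150 CPM with clofazimine against 165 and 182 CPM without, mostly from COL1A1, with PTPRC and HBB at 0 in every library. Of these 13 markers 6 passed the filter, 1 higher (COL1A1) and 5 lower (CD14, PECAM1, CDH5, DCN and ACTA2). PECAM1 had 5.29 and 4.72 CPM with clofazimine against 22.9 and 28.9 CPM without. CD14 had 18.5 and 20.6 CPM with clofazimine against 33.3 and 40.0 CPM without. Genes of the mitochondrial genome held 2.06% and 2.13% of the counts in the clofazimine libraries against 3.69% and 3.75% in the untreated libraries, and MALAT1, a nuclear RNA read as a sign of RNA quality, was higher, with a log2 fold change of 0.96. The part of these differences in the results on the members was not tested.

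The cytosolic and mitochondrial enzymes divided. Of the 20 cytosolic synthetase genes 13 were higher in the clofazimine libraries and 0 lower, with a median log2 fold change of 0.54. GARS and KARS, which serve both compartments, are counted among the cytosolic genes. Of the 16 mitochondrial synthetase genes 2 were higher and 6 lower, and their median was -0.19. All 3 scaffold genes were higher. Calls are from edgeR's quasi-likelihood test at a Benjamini-Hochberg adjusted p under 0.05 over 16388 genes, of which 59.9% were called, 29.5% higher and 30.4% lower, around a median of -0.03. The share of lower calls among mitochondrial synthetases was therefore near that of all genes. The absence of lower calls among the cytosolic enzymes is a count of these members with no test of its own. Both clofazimine libraries lay above both untreated libraries for 16 of the 20 cytosolic genes (39.2% of all genes tested did so) and for 3 of the 16 mitochondrial genes. Both lay below for 0 cytosolic and 9 mitochondrial genes (41.6% of all genes tested).

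**Figure D1:**
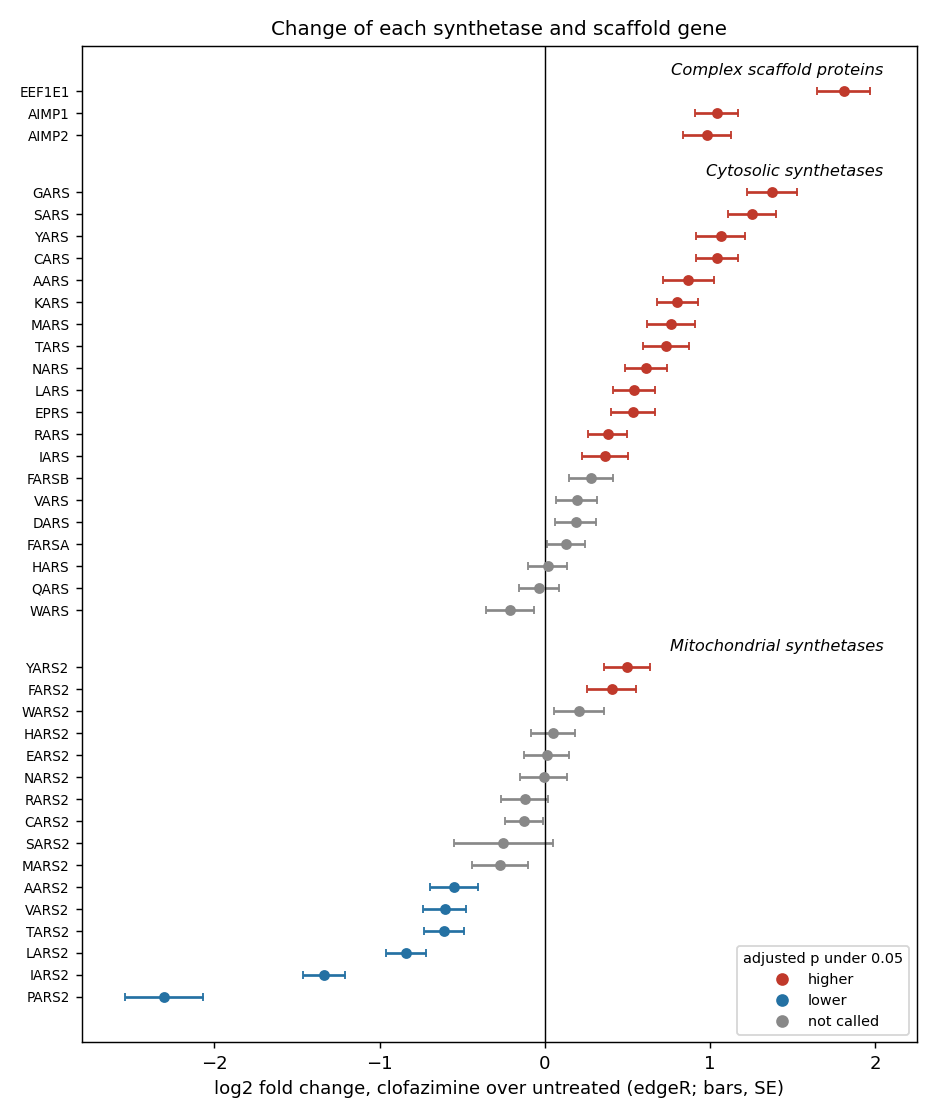
Log2 fold change of each of the 39 genes in clofazimine over untreated libraries (x axis, edgeR; bars are the SE, n = 2 libraries per group), coloured by whether the adjusted p was under 0.05. EEF1E1 lies at the top with 1.81, cytosolic enzymes run from 1.37 to -0.21, and mitochondrial enzymes from 0.50 to -2.30.

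The scaffold proteins included the member with the largest rise. EEF1E1 (ENSG00000124802, GRCh38 chromosome 6, 8073360 to 8102578), the smallest of the 3 and also known as AIMP3, had 30.1 and 37.8 CPM in the clofazimine libraries against 9.93 and 9.45 CPM in the untreated libraries. Its groups were far apart, with a log2 fold change of 1.81 ± 0.16 (SE, edgeR adjusted p 1.13e-07), or 3.50-fold. AIMP1, whose cleaved form acts as a cytokine, had 55.8 and 65.4 CPM with clofazimine against 30.2 and 28.7 CPM without (1.04 ± 0.13). AIMP2, on which the complex is built, had 31.0 and 34.3 CPM with clofazimine against 17.7 and 15.4 CPM without (0.98 ± 0.15). In all 3 genes both clofazimine libraries lay above both untreated libraries. AIMP2 shares 532 exonic bases with EIF2AK1 on the opposite strand, which was not called (-0.13). When exon length and GC were corrected for, the log2 fold changes were smaller, at 1.28 for EEF1E1, 0.55 for AIMP1 and 0.86 for AIMP2, and all remained called.

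Most of the enzymes that sit in that complex were higher too. Of 8 such genes 6 were higher and 2 were not called, at a median of 0.46. KARS, the lysine enzyme of both compartments, had 289 and 318 CPM in the clofazimine libraries against 177 and 171 CPM in the untreated libraries (0.80 ± 0.12, adjusted p 3.89e-05, and 0.76 with the length and GC correction). MARS, the methionine enzyme, had 508 and 501 CPM with clofazimine against 339 and 255 CPM without (0.76 ± 0.14, and 1.05 with that correction). Its exons share 355 bases with DDIT3 on the opposite strand, which encodes the stress factor CHOP and stood at 234 against 16.5 CPM. Without a stated strand setting, reads of MARS and DDIT3 in those bases cannot be told apart. LARS, which also acts as a leucine sensor for mTORC1, had 186 and 208 CPM with clofazimine against 145 and 125 CPM without (0.54 ± 0.13). EPRS, a fused enzyme for glutamate and proline, had 382 and 384 CPM with clofazimine against 291 and 238 CPM without (0.53 ± 0.13). The groups of both genes were separate, with the untreated libraries wider apart than the clofazimine libraries in EPRS. RARS, the arginine enzyme, was at 0.38 ± 0.12 and IARS, the isoleucine enzyme, at 0.37 ± 0.14. Their adjusted p-values were 0.010 and 0.031, the weakest among the calls in this complex. RARS was at 0.03 with the length and GC correction and was then no longer called. DARS (0.19 ± 0.13, aspartate) and QARS (-0.03 ± 0.12, glutamine) did not pass the test, and QARS had 212 and 230 CPM with clofazimine against 225 and 227 CPM without, so that its groups overlapped.

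Cytosolic enzymes outside the complex held the 4 largest changes of the cytosolic set. Of these 12 genes 7 were higher and 5 not called, and their median was 0.67. GARS (ENSG00000106105, chromosome 7, 30594681 to 30634033), the glycine enzyme of both compartments, had 784 and 871 CPM in the clofazimine libraries against 367 and 272 CPM in the untreated libraries. Its log2 fold change was 1.37 ± 0.15 (adjusted p 1.26e-06), or 2.59-fold. SARS (ENSG00000031698, chromosome 1, 109213918 to 109238169), the serine enzyme, had 456 and 505 CPM with clofazimine against 228 and 175 CPM without (1.25 ± 0.14). For both genes every clofazimine value lay above every untreated value. YARS, the tyrosine enzyme, had 536 and 560 CPM with clofazimine against 304 and 220 CPM without (1.06 ± 0.15). CARS, the cysteine enzyme, had 290 and 278 CPM with clofazimine against 150 and 126 CPM without (1.04 ± 0.13). AARS, the alanine enzyme, was the member with the highest level per exon length in every library. It had 1435 and 1373 CPM with clofazimine against 890 and 648 CPM without (0.87 ± 0.15). The untreated libraries of AARS lay further apart than its clofazimine libraries. TARS, for threonine, had 499 and 541 CPM with clofazimine against 350 and 276 CPM without (0.73 ± 0.14), and NARS, for asparagine, 189 and 216 CPM with clofazimine against 141 and 123 CPM without (0.61 ± 0.13).

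The 5 free enzymes that did not pass the test lay between -0.21 and 0.28. The phenylalanine enzyme is made of 2 subunits, FARSA at 0.13 ± 0.12 and FARSB at 0.28 ± 0.13. VARS, the valine enzyme, was at 0.19 ± 0.12 (0.49 and called with the length and GC correction), and HARS, the histidine enzyme, at 0.02 ± 0.12 (0.31 and called with that correction). WARS, the tryptophan enzyme and an interferon-inducible gene, had 296 and 320 CPM in the clofazimine libraries against 409 and 302 CPM in the untreated libraries, so that its groups overlapped (-0.21 ± 0.15, adjusted p 0.23). It was the lowest of the cytosolic set, and with library totals in place of TMM it was called lower, at -0.38. By structural class, 6 of 9 cytosolic class I genes and 6 of 10 class II genes were higher, beside EPRS, which belongs to both.

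**Figure D2:**
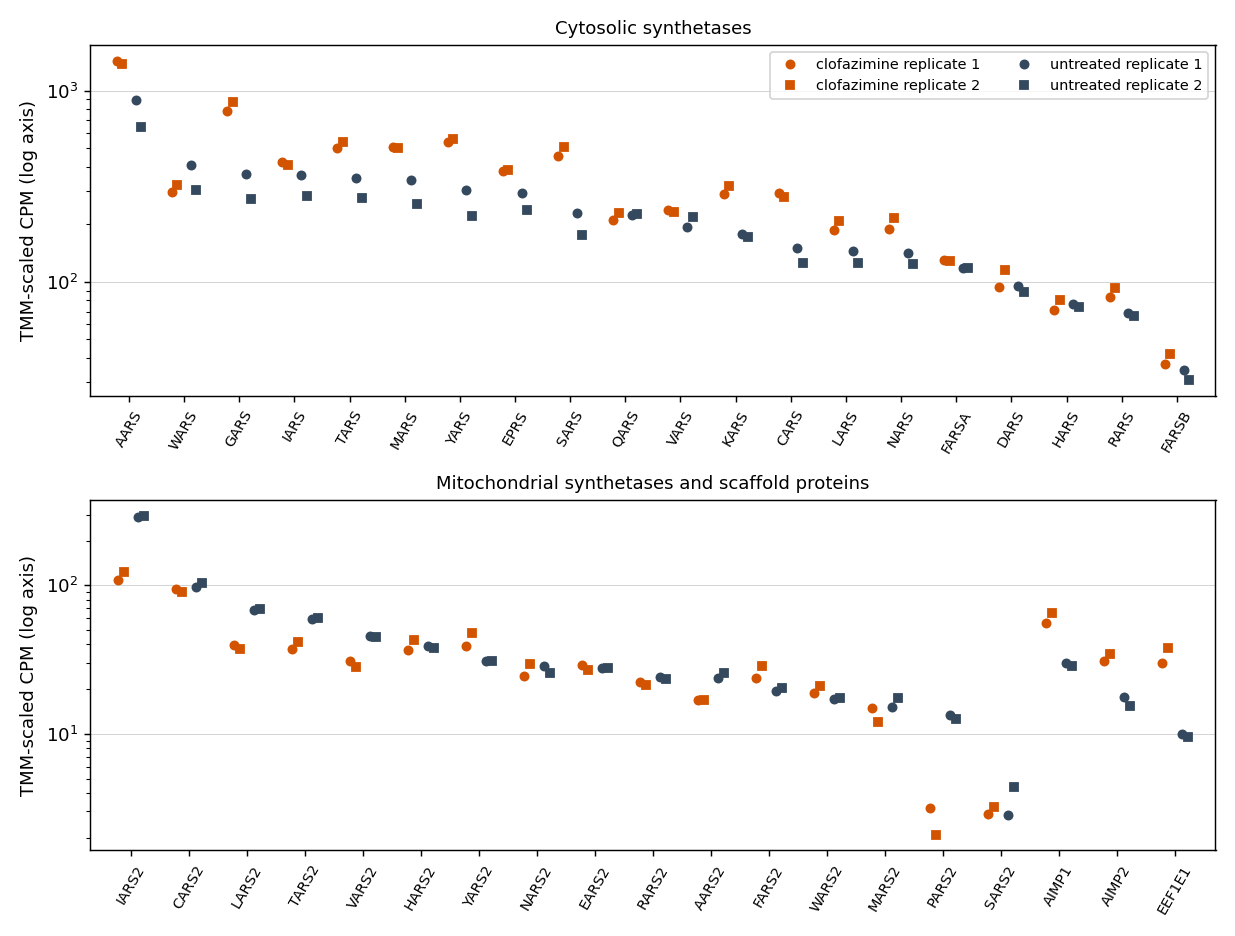
Level of each of the 39 genes in each library (y axis, TMM-scaled CPM on a log axis; orange, clofazimine; dark blue, untreated; circles, replicate 1; squares, replicate 2). Untreated replicate 1 lies above untreated replicate 2 for 18 of the 20 cytosolic genes, whereas the untreated libraries lie close together for most mitochondrial genes, SARS2 excepted.

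The untreated libraries differed from each other in the cytosolic enzymes. Untreated replicate 1 was above untreated replicate 2 in 18 of 20 cytosolic genes, by over 1.2-fold in 9 of them (45.0%, against 14.3% of all genes tested) and in 0 of the 16 mitochondrial genes. Among mitochondrial genes SARS2 differed most, at 2.85 CPM in replicate 1 and 4.42 CPM in replicate 2. Replicate 1 over replicate 2 was highest among cytosolic genes for YARS, at 1.38. Of the 18 genes listed for sensing by GCN2 and its output, 6 were over 1.2-fold higher in untreated replicate 1, namely TRIB3, DDIT3, PPP1R15A, ASNS, SESN2 and CEBPG, with ratios from 1.33 to 1.73. ATF4 was at 1.17, and EIF2AK4, GCN1 and EIF2B5 were lower in replicate 1. Whether this difference came from the cells or from the libraries was not tested. Without untreated replicate 2, 9 cytosolic genes were called higher at a median of 0.40, and without untreated replicate 1, 12 were at a median of 0.65. AARS, CARS, GARS, KARS, MARS, NARS, SARS, TARS and YARS were called higher under each of the 12 alternative settings, and EPRS, LARS, IARS and RARS were not called without untreated replicate 2.

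Among the mitochondrial enzymes the largest drop was in PARS2 (ENSG00000162396, chromosome 1, 54756898 to 54764514), which charges mitochondrial proline tRNA. It had 3.19 and 2.10 CPM in the clofazimine libraries against 13.4 and 12.5 CPM in the untreated libraries, a log2 fold change of -2.30 ± 0.24 (adjusted p 5.18e-07), or 4.94-fold lower. IARS2 (ENSG00000067704, chromosome 1, 220094102 to 220148041), for isoleucine, had 109 and 123 CPM with clofazimine against 290 and 296 CPM without (-1.34 ± 0.13, adjusted p 1.98e-07). Per exon length it was the most abundant mitochondrial enzyme in the untreated libraries. LARS2, for leucine, had 39.9 and 37.2 CPM with clofazimine against 68.6 and 69.2 CPM without (-0.84 ± 0.12). In these 3 genes the groups were well separated and the untreated libraries lay close together. Smaller falls were measured in the other 3. TARS2, for threonine, had 37.4 and 41.3 CPM with clofazimine against 59.7 and 60.4 CPM without (-0.61 ± 0.12). VARS2, for valine, had 31.2 and 28.3 CPM with clofazimine against 45.4 and 44.9 CPM without (-0.61 ± 0.13). It shares 1858 exonic bases with GTF2H4 on the same strand, and how reads in such bases were counted is not given. AARS2, for alanine, had 16.8 CPM in each clofazimine library against 23.6 and 25.6 CPM without (-0.55 ± 0.15). VARS2 was at -0.22 and no longer called with the length and GC correction, while the other 5 that fell were called lower under each of the 12 alternatives.

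The mitochondrial enzymes that rose were YARS2 and FARS2. YARS2, for tyrosine, had 38.9 and 48.0 CPM in the clofazimine libraries against 30.8 and 30.9 CPM in the untreated libraries (0.50 ± 0.14, adjusted p 0.0049). FARS2, for phenylalanine, had 23.6 and 28.6 CPM with clofazimine against 19.3 and 20.2 CPM without (0.40 ± 0.15, adjusted p 0.026). Neither was called when 1 of the untreated libraries was left out (0.47 and 0.48 for YARS2, 0.35 and 0.42 for FARS2). FARS2 was also not called without clofazimine replicate 2 (0.27) or with library totals (0.24). Of the 8 that were not called, EARS2 (glutamate), HARS2 (histidine) and NARS2 (asparagine) lay between -0.01 and 0.05, and RARS2 (arginine) and CARS2 (cysteine) were each at -0.12. With the length and GC correction CARS2 was at 0.31 and called higher, while RARS2 was at -0.53 and NARS2 at -0.31, both called lower. With library totals in place of TMM, CARS2 (-0.29) and MARS2 (-0.44) were called lower. MARS2 for methionine (-0.27 ± 0.17), SARS2 for serine (-0.25 ± 0.30) and WARS2 for tryptophan (0.21 ± 0.15) complete the set. SARS2 had the lowest untreated level of all members per exon length and the widest error. It had 2.88 and 3.21 CPM with clofazimine against 2.85 and 4.42 CPM without. SARS2 shares 1492 of its 3231 exonic bases with AC011455.2 on the same strand. How reads in such bases were counted is not given, and their part in its level was not tested.

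Paired by amino acid, the cytosolic enzyme changed more upward than its mitochondrial counterpart in most cases. There were 17 pairings, with EPRS set against both EARS2 and PARS2, and FARSA and FARSB each against FARS2. In 13 of them the cytosolic minus mitochondrial difference in log2 fold change was above 0 and over 2 times its SE, and in 0 was it below 0 by that margin. The SE of a difference treats the 2 genes as independent, and no test was made over the pairings. In 5 pairings (proline, isoleucine, leucine, threonine and alanine) the cytosolic enzyme rose and the mitochondrial one fell. The difference was 2.84 ± 0.27 for EPRS and PARS2, 1.70 ± 0.19 for IARS and IARS2, and 1.42 ± 0.21 for AARS and AARS2. Tyrosine was the only amino acid with both enzymes called higher (1.06 for YARS and 0.50 for YARS2). The pairs for histidine (-0.03 ± 0.18) and tryptophan (-0.41 ± 0.21) and both pairings of FARS2 (-0.28 ± 0.19 with FARSA and -0.13 ± 0.20 with FARSB) lay below 0, each by less than 2 times its SE.

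**Figure D3:**
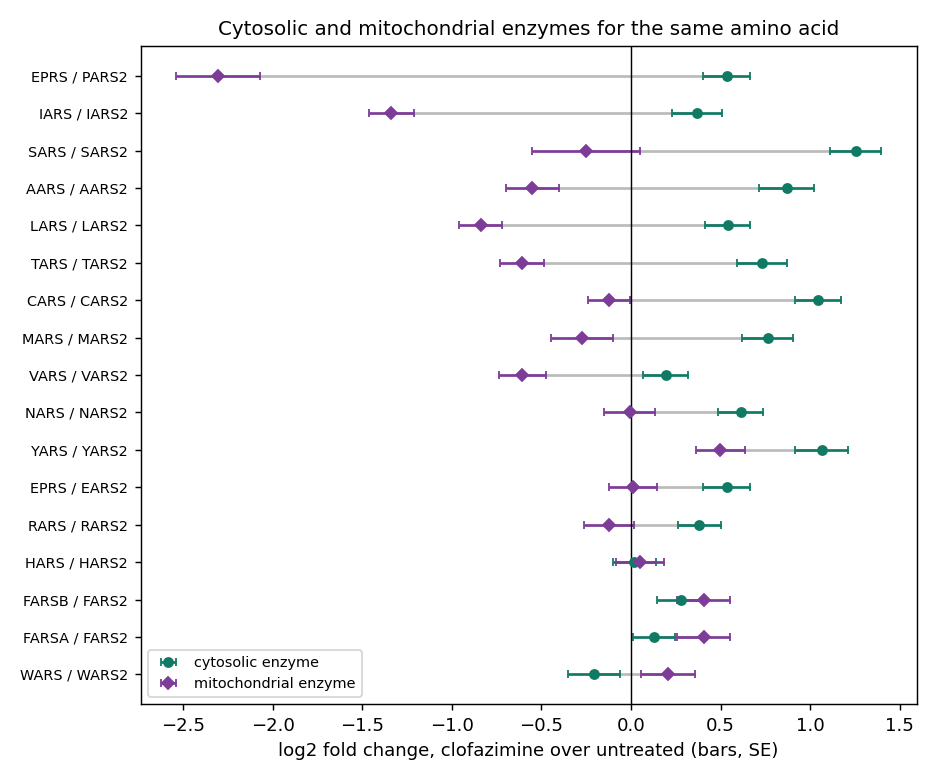
Log2 fold change in clofazimine over untreated libraries (x axis; bars are the SE) of the cytosolic enzyme (green circles) and the mitochondrial enzyme (purple diamonds) for the same amino acid, ordered by their difference. The widest gap is that of EPRS and PARS2, 2.84, and the order turns round only in the lowest 4 rows.

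Levels per exon length, as TPM from the union of a gene's exons, were summed to set the compartments side by side within a library, where the scaling between libraries cancels. The cytosolic enzymes held 11.3 and 10.8 times the summed TPM of the mitochondrial enzymes in the clofazimine libraries, against 5.26 and 4.26 times in the untreated libraries. GARS and KARS, which serve both compartments, are counted wholly in the cytosolic sum. Their means were 698 and 261 TPM with clofazimine against 320 and 178 TPM without. Both sums moved, since the cytosolic sum was 5029 and 4986 TPM with clofazimine against 4043 and 3239 TPM without, and the mitochondrial sum 446 and 460 TPM with clofazimine against 768 and 759 TPM without. Between libraries the size of each move depends on the unit, since TPM carries no TMM scaling. Clofazimine over untreated, the cytosolic sum was 1.38 in TPM and 1.62 in TMM-scaled CPM, and the mitochondrial sum 0.59 and 0.69. IARS2 alone made up 93.6 and 101 TPM with clofazimine against 292 and 291 TPM without. For isoleucine the order of the enzymes turned round, with IARS at 2.20 and 1.86 times the TPM of IARS2 in the clofazimine libraries and at 0.70 and 0.54 times in the untreated libraries. Alanine had one of the steepest ratios, with AARS at 81.7 and 77.9 times AARS2 with clofazimine against 36.0 and 24.1 times without. HARS and HARS2 stayed near equal, at 0.93 and 0.89 times with clofazimine and 0.93 in each untreated library.

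Neighbouring genes did not all move alike. EPRS and IARS2 are neighbours on chromosome 1, separated by 47443 bases that hold BPNT1, a nucleotidase. EPRS was at 0.53, BPNT1 at -0.20 ± 0.13 (not called) and IARS2 at -1.34. Within 1000 bases of the start of a member, 10 pairs with a protein-coding gene on the opposite strand were found, HARS with HARS2 among them, in a search made after the data had been seen. Of the 4 members in such pairs that rose, 3 had a partner that also rose, beside 29.5% of all genes tested that were called higher. Whether such pairs rise together was not tested. These were AARS with the RNA helicase gene DDX19B (0.83 ± 0.14), KARS with TERF2IP (0.96 ± 0.12), which encodes the telomere protein RAP1, and FARS2 with LYRM4 (0.50 ± 0.15), a factor of iron-sulfur cluster assembly. The partner of AIMP2, the mismatch repair gene PMS2, was not called (-0.32 ± 0.14). In the 6 pairs whose member was not called, counting HARS with HARS2 once, 4 partners were not called and 2 rose, CARS2 with ING1 (0.45) and RARS2 with ORC3 (0.46). The strand setting of the counts is not known, and 19 of the 39 members share exonic bases with a gene on the opposite strand, 7 of them with one that was itself called. HARS and HARS2 share 437 such bases, and KARS and TERF2IP share 176. Reads of the 2 genes of a pair in those bases cannot be told apart. Counts on 17 annotated pseudogenes named for members did not exceed 6 in any library.

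Promoter letters were examined because many cytosolic members moved together. RefSeq windows (GRCh38.p14, 250 bases before to 50 after each start) were found for 33 of the 39 members, 16 cytosolic, 14 mitochondrial and 3 scaffold genes. AARS2, DARS, LARS, VARS, VARS2 and YARS had none in the table. The C/EBP-ATF response element, the composite site at which ATF4 pairs with C/EBP factors, was searched as TGATGNAA on both strands. It was present in the windows of 7 of the 16 cytosolic genes, 1 of the 14 mitochondrial genes and 0 of the 3 scaffold genes. Some genes have several windows. Counted by window, the site was in 7 of 21, 1 of 18 and 0 of 6, against 2.69% of 22199 windows of protein-coding genes. All 8 sites are shown in 30 bases, read 5′ to 3′ along the gene, with the match in capitals; in most the site is read from the opposite strand, as TTNCATCA.
AARS, chr16:70289675-70289704, minus strand: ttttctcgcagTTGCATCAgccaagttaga
CARS, chr11:3057407-3057436, minus strand: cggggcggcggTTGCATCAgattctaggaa
GARS, chr7:30594834-30594863, plus strand: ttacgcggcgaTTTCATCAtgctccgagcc
IARS, chr9:92293692-92293721, minus strand: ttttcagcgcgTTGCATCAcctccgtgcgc
MARS, chr12:57488053-57488082, plus strand: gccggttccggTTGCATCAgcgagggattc
NARS, chr18:57621804-57621833, minus strand: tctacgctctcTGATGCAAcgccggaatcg
TARS, chr5:33440956-33440985, plus strand: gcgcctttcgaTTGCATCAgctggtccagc
YARS2, chr12:32756076-32756105, minus strand: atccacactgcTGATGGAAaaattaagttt

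These 8 genes were all called higher, beside 29.5% of all genes tested. The share called higher among all genes with the site was not computed. Of the 11 cytosolic genes that rose and had a window, 7 held the site, and EPRS, KARS, RARS and SARS, which also rose, did not. Of the 5 cytosolic genes that were not called and had a window, FARSA, FARSB, HARS, QARS and WARS, 0 held it. The median log2 fold change of the 7 was 0.76 and that of the other 4 that rose 0.67, values that lie close together. YARS2, one of the 2 mitochondrial enzymes that rose, held the letters TGATGGAA. First bases lay at -187 in AARS, -33 in GARS, -13 in IARS, -4 in MARS, -2 in CARS, 3 in TARS and 15 in NARS, counted from the RefSeq start. A match of these letters does not show that ATF4 binds there. The letters were searched after the calls were known, and whether the site had a part in the rises was not tested.

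The AARS site is shown in its upstream context because AARS had the highest level per exon length. These are the 250 bases before its start, with the same site in capitals.
AARS, chr16:70289507-70289756, minus strand: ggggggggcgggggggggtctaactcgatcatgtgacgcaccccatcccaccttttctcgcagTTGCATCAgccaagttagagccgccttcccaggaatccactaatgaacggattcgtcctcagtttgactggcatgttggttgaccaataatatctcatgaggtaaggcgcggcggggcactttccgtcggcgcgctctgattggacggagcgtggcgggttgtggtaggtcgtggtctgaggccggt

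Of the other motifs searched, all but the cAMP response element were found in both compartments. The binding motif of NRF1, a regulator of many mitochondrial genes, was in the windows of 3 of 16 cytosolic and 3 of 14 mitochondrial genes. Counted by window it was in 5 of 21 and 3 of 18, against 7.39% of all coding windows. The ETS letters CCGGAAGT were in 5 of 16 cytosolic and 3 of 14 mitochondrial genes (5 of 21 and 4 of 18 windows, against 5.34% of all coding windows). The E-box CACGTG was in 1 of 16 and 3 of 14 genes (1 of 21 and 4 of 18 windows, against 8.34%). The full cAMP response element TGACGTCA was found in AIMP2 and in no synthetase window (2.26%). HARS and HARS2, neither of which was called, run in opposite directions from RefSeq starts with 84 bases between them. Those bases are shown with their 2 ETS matches in capitals, 1 near each start. The windows of both genes hold these same 2 matches, which are therefore counted in both compartments above. The 250 bases before the start of PARS2, the gene with the largest drop, also hold 2 ETS matches.
HARS to HARS2, chr5:140691371-140691454, plus strand: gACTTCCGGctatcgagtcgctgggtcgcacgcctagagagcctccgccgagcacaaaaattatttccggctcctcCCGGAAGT
PARS2, chr1:54764524-54764773, minus strand: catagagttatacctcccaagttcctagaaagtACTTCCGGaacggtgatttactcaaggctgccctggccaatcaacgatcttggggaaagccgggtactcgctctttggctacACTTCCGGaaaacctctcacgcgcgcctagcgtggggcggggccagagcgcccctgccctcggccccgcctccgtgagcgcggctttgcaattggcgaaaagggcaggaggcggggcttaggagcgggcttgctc

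Genes that act beside the synthetases were read from fixed lists. The counts below stand beside 29.5% of all genes tested called higher and 30.4% called lower. Of 11 accessory and proofreading factors of tRNA charging 10 were tested, of which 5 were higher and 0 lower (median 0.44). Mitochondria lack a glutamine enzyme and make Gln-tRNA by amidating Glu-tRNA, which EARS2 charges (0.01 ± 0.13). Of the 3 subunits of that amidotransferase, QRSL1 rose to 34.0 and 40.9 CPM in the clofazimine libraries, against 17.3 and 15.6 CPM in the untreated libraries (1.19 ± 0.15). GATC was at 0.45 ± 0.13 and called, and GATB at -0.33 ± 0.14 with an adjusted p of 0.055. PTRH2, a peptidyl-tRNA hydrolase, rose by 1.03 on the log2 scale.

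The machinery that makes tRNA was mixed. Of 26 genes of tRNA end processing, splicing and export 12 were higher and 5 lower (median 0.26). Subunits of RNase P and its relative RNase MRP went both ways, with RPP40 (2.83-fold) and RPP30 (log2 fold change 1.30 ± 0.14) higher, and POP1 (-2.66 ± 0.27) and RPP14 (-1.01 ± 0.21) lower. XPOT, the exporter of tRNA from the nucleus, had 651 and 682 CPM with clofazimine against 363 and 266 CPM without (1.08 ± 0.15), and it is named after its values were seen. Its untreated libraries differed in the same direction as those of the cytosolic enzymes. Of 44 tRNA modification enzymes 20 were higher and 3 lower (median 0.23), led by CTU1 (1.68 ± 0.18), which helps thiolate tRNA, and TRMT11 (1.47 ± 0.13), a methyltransferase subunit. ADAT1, which deaminates adenosine in alanine tRNA, was at -1.51 ± 0.13 and DUS2, a dihydrouridine synthase, at -0.84 ± 0.16. RNA polymerase III and its factors had 7 of 21 higher and 6 lower (median -0.01), near the share of all genes in both directions. Among them POLR3B (-0.78 ± 0.18), a subunit of the enzyme, fell, while GTF3A (0.81 ± 0.12), a factor for 5S rRNA genes, and POLR3E (0.76 ± 0.12), another subunit, rose.

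**Figure D4:**
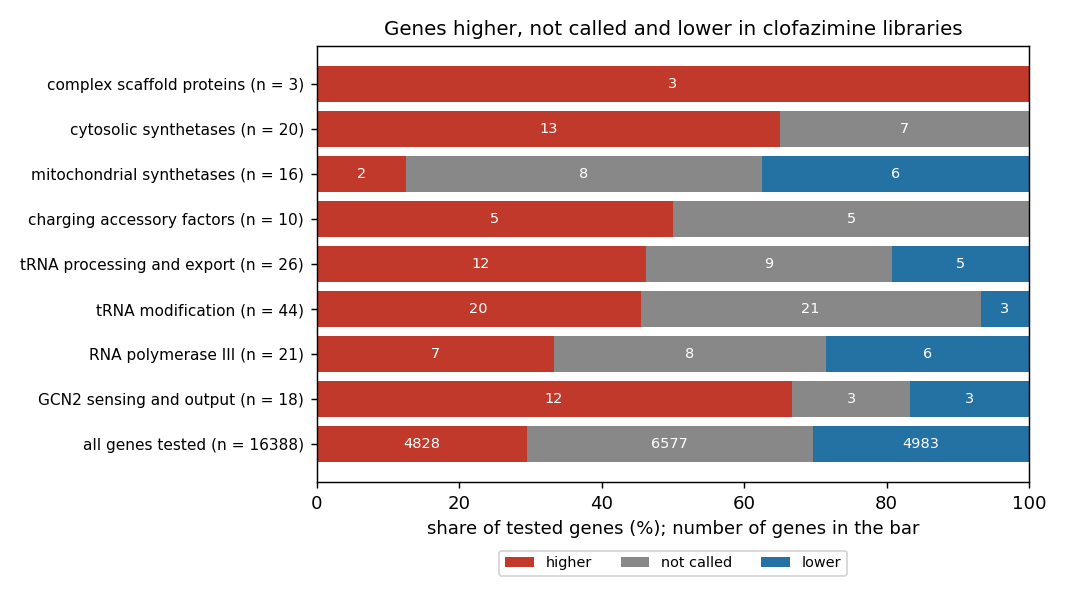
Share of tested genes called higher (red), not called (grey) and called lower (blue) in clofazimine over untreated libraries for each list (x axis in percent; numbers in the bars are genes), with all 16388 genes at the bottom. The 20 cytosolic enzymes have 13 higher and 0 lower, and the 16 mitochondrial enzymes 2 higher and 6 lower.

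In the list for sensing of uncharged tRNA by GCN2 and its output, genes of the sensor fell and most output genes rose. Of 18 listed genes 12 were higher, 3 lower and 3 not called (median 0.56), beside 29.5% of all genes tested higher and 30.4% lower. The higher genes include EIF2S1, EIF2B2, EIF2B3 and EIF2B4, which are neither sensor nor output. EIF2B1 and EIF2B5 were not called. SESN2, an output gene, was not called (0.11 ± 0.15). The 3 that fell act at the sensor, namely EIF2AK4, which encodes GCN2 itself, with 56.6 and 49.7 CPM in the clofazimine libraries against 80.3 and 87.2 CPM in the untreated libraries (-0.66 ± 0.12), its activator GCN1 (-0.69 ± 0.16) and its inhibitor IMPACT (-0.79 ± 0.15). ATF4 mRNA had 797 and 877 CPM with clofazimine against 488 and 416 CPM without (0.89 ± 0.14). Higher still were PPP1R15A (4.07 ± 0.18), which targets a phosphatase to eIF2 alpha, and DDIT3 (3.82 ± 0.18). Earlier results of these data had shown the rise of those output genes, so it is no independent support for the synthetase values. These counts measure mRNA, and neither the charging of tRNA nor the activity of GCN2 was measured. Whether GCN2 had a part in the rise of the output genes was not tested.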

How the data were processed

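The table that the authors deposited holds raw counts, per the file headers, for 4 libraries of polyadenylated RNA and 58735 Ensembl identifiers, each found in GENCODE release 29. The submitters' processing notes name fastp and GRCh38. The aligner, counter, strand setting and annotation release are not given in the sources used here. Groups came from the sample titles, and control columns were matched to the titles with the word Wildtype and the same number.

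Differences were tested with the quasi-likelihood test of edgeR 4.0.16 (R 4.3.3) with TMM scaling and no replicate term, on the 16388 genes that passed filterByExpr (at least 10 counts in 2 libraries after scaling, 15 in all). P-values were adjusted over all of them by the Benjamini-Hochberg method. Standard errors were taken from the fold change and the F statistic (absolute log2 fold change over the root of F). The biological coefficient of variation was 9.91%, and counting limits cover counting error only, since reads carried no molecular identifiers. Replicates differed by more than counting noise (chi-square per degree of freedom 11.8 for clofazimine and 5.81 for untreated). The pipeline was tested on simulated data.

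Gene lists were fixed by name, other genes being named as the largest called changes per list at a mean of at least 5 CPM. A gene that this rule gave is not reported here. The members, lists and alternatives were chosen with earlier results of these data known. Alternatives were other scalings, filters and tests (DESeq2 1.42.0, limma 3.58.1), a replicate block, each library left out, and a length and GC correction (mgcv 1.9.3).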

Additional observations from a re-analysis of the deposited data

How the results depend on the processing

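Of the 24 members called, 17 kept their call and direction under each of the 12 alternatives, and the exceptions were EPRS, LARS, IARS, RARS, VARS2, YARS2 and FARS2. With library totals in place of TMM, which shifted the median of all genes by -0.17, the medians were 0.37 for cytosolic and -0.35 for mitochondrial enzymes, 1 cytosolic gene (WARS) was lower, 1 mitochondrial gene was higher in place of 2 and 8 were lower in place of 6, CARS2 and MARS2 being added, and calls over the whole table split into 3732 higher and 6245 lower, against 4828 higher and 4983 lower with TMM. Without a filter, and with the DESeq2 Wald test, 1 mitochondrial gene was higher, since FARS2 was no longer called. With the length and GC correction 3 mitochondrial genes were higher and 7 lower. CARS2, at -0.12, was then at 0.31, RARS2 at -0.53 and NARS2 at -0.31, and VARS2 was no longer called. Leaving out 1 library each gave cytosolic medians from 0.40 to 0.65, mitochondrial medians from -0.29 to -0.12, from 9 to 15 cytosolic genes higher, 0 to 2 mitochondrial genes higher, and 3397 to 4916 genes higher and 3523 to 4866 lower over the whole table. The replicate numbers did not pair the libraries (correlation of deviations -0.04), and with a replicate block 13 cytosolic genes were higher and 6 mitochondrial genes lower, as without it, with no member's call changed. Causes of these differences were not tested. With 2 libraries per group, the SE of a member was 0.12 to 0.30, and changes larger than the SE could still go uncalled. FARSB (0.28 ± 0.13) and MARS2 (-0.27 ± 0.17) were not called, and the smallest called change was that of IARS (0.37 ± 0.14).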
